A study of Caenorhabditis elegans with 28 samples.

Results

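Levels of mature miRNAs were compared between C. elegans larvae lacking normal EBAX-1 and wild-type larvae at the start of an hourly time course, across all annotated miRNA arms. Members were chosen by strain and hour alone. They were the ebax-1(tm2321) libraries of 21, 22, 23 and 24 h and the N2 libraries of 18, 19, 20 and 21 h, 8 of the 28 libraries of the series. Each mutant library was paired with the N2 library sampled 3 h earlier on the clock, because the study's mRNA profiles, left unused here, placed the mutant 3 h behind. The resulting matched hours 18, 19, 20 and 21 are given in N2 time. A further 14 libraries, 7 of each strain at matched hours 22 to 28, served as the later hours.

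The mutant strain was HW3527, which carries the tm2321 allele of ebax-1 on chromosome IV, and N2 is the standard wild type. Both were whole larvae grown at 25 °C on plates after synchronised L1 arrest, with no treatment. 1 library was made per strain and hour and no replicate cultures were labelled. The 4 libraries of a strain thus share a culture as far as the labels tell, strain and culture cannot be told apart, and p-values reflect nothing beyond the scatter among these libraries. Genotypes were taken from the labels alone, without a check of the ebax-1 transcript. In whole larvae, more cells of a type and more of a miRNA per cell cannot be told apart.

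A miRNA hairpin is cut into a duplex of a 5p and a 3p arm. The guide arm is loaded into Argonaute, where it is usually stable, and the passenger arm is mostly discarded. EBAX-1, the worm counterpart of mammalian ZSWIM8 and fly Dora, is the substrate receptor of a Cullin-RING ubiquitin ligase. In mammals and flies this ligase removes Argonaute proteins bound to certain target RNAs, so that the miRNA they carry is lost. This route, target-directed miRNA degradation, acts on the loaded arm. In worms no such target RNA is known, and the study rests the route there on analogy alone. The mir-35 family, needed in the embryo and cleared as larvae hatch, is the best known miRNA lost through EBAX-1.

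Libraries held 7551463 to 9733557 counts in the mutant and 8035537 to 11443622 in N2. A read was found for 326 to 337 arms in mutant libraries and 331 to 347 in N2 libraries, and 383 of 437 arms had a read in at least 1 of the 8. The 10 most abundant arms took 61.5% to 64.1% of counts in the mutant and 65.0% to 66.0% in N2. The top arm was miR-58a-3p, except in the mutant at 24 h, where it was miR-81-3p. Normalised counts below are counts divided by the library total and multiplied by the mean total of all 28 libraries. On this scale 3 counts, the limit that a count of 0 allows, were worth 2.58 to 3.32 in mutant libraries and 2.19 to 3.12 in N2 libraries, for counting error only. Arms known from neurons, body muscle, intestine, glia and epidermis were all detected.

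Several arms changed steeply within the window, and they did so in both strains. Of 196 arms that averaged at least 50 in each strain, 8 had a highest hour at least 4 times their lowest in the mutant, and the same 8 did so in N2, where 13 did in all. let-7-5p, the guide that promotes the larval-to-adult transition, had 4890, 6638, 12559 and 82146 normalised counts at the 4 matched hours in the mutant, against 5280, 4607, 14433 and 64543 in N2. Its passenger let-7-3p had 19.4, 132, 741 and 1827 in the mutant, against 5.84, 17.7, 414 and 2246 in N2. miR-237-3p, the passenger of a lin-4 relative, had 299.5, 519, 1100.04 and 3332 in the mutant, against 230.04, 181, 702 and 2080 in N2. These arms climbed over the same matched hours in both strains, and 0 of the 8 steep arms passed the strain test below. Of all tested arms 6.53% did. The strain difference of let-7-5p depended on the pairing: it was 0.14 ± 0.16 (SE, log2, ebax-1 minus N2) at a lag of 3 h, -1.40 with no lag and 1.17 with a lag of 4 h.

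The first comparison asked which arms stood at another level in the mutant over the early hours. The log2 difference was fitted over the 4 pairs with limma and an arm was called at a Benjamini-Hochberg adjusted p under 0.01. Of 383 arms, 25 were called (6.53%). 13 were higher in ebax-1 (3.39%) and 12 were lower (3.13%). Each of the 25 had 1 sign in 4 of 4 hours and no overlap between the strains, which held for 71 of all tested arms (18.5%). Of the called arms, 18 were guides, 10 higher and 8 lower, and 7 were passengers, 3 higher and 4 lower. The median difference over all arms was -0.12, with 128 arms above and 255 below 0.

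The 13 higher arms and the 12 lower arms rested on unequal ground. With TMM factors in place of library totals the median difference over all arms was -0.04, and 11 arms were called higher and 0 lower. With DESeq2 size factors the median was 0.0023, a shift of the whole table by over 0.1, and 13 were called higher and 0 lower. All 12 lower arms kept their sign under both, with adjusted p of 0.0137 or more under TMM and 0.0183 or more under DESeq2 size factors. edgeR's quasi-likelihood test called all 13 higher arms and 5 of the 12 lower ones. A single matched hour also weighed heavily, as 8 arms were called without matched hour 18, all of them higher, 36 without hour 19, 17 without hour 20 and 13 without hour 21. miR-35-3p, miR-36-3p, miR-37-3p, miR-38-3p, miR-39-3p, miR-40-3p, miR-42-3p and miR-4807 were called under all 20 alternatives run.

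**Figure D1:**
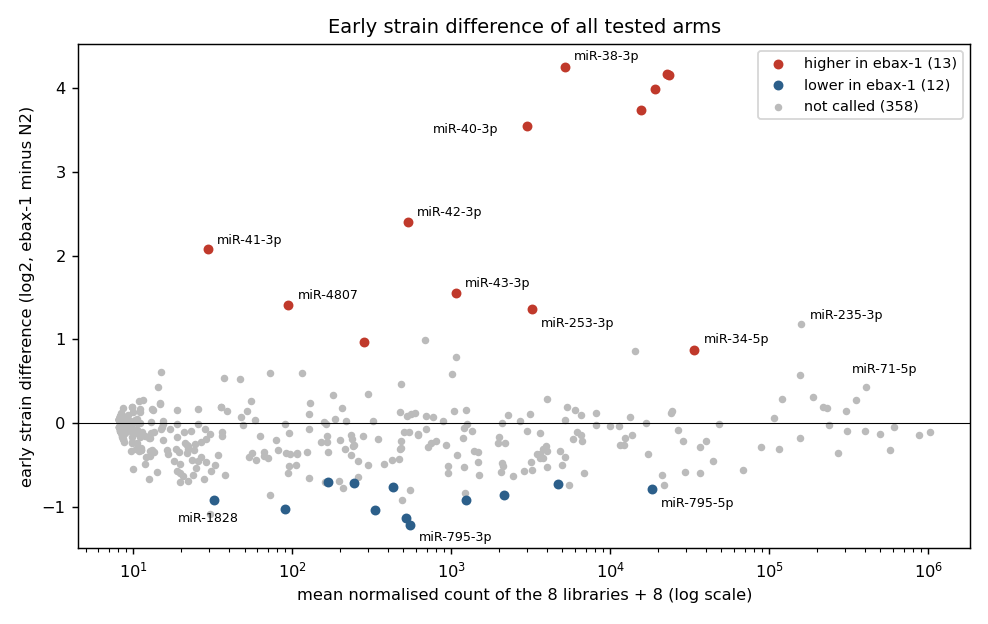
Early strain difference (log2, ebax-1 minus N2) of the 383 tested arms against their mean normalised count over the 8 libraries plus 8, on a log axis. The 13 called higher arms reach 4.26 and the 12 called lower arms lie between -0.71 and -1.22, in the same band as many arms that were not called.

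The mir-35 family gave the largest differences, in its 3p arms. Their genes form 1 cluster on chromosome II, where mir-35 begins at 11537608 and mir-41 ends at 11538404 on the plus strand in the WBcel235 annotation, opposite in strand to Y62F5A.9, whose intron contains it. The mir-42 gene lies apart, at 11889811 to 11889905. Together, the 8 family 3p arms took 1.55% to 2.22% of all counts in mutant libraries, against 0.0901% to 0.164% in N2 libraries. Reads were allowed to map many times, and members of a family with similar sequences could share reads.

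miR-35-3p had 46099.9, 49346, 40811 and 35450.1 normalised counts in the mutant, against 2809, 2093, 1719 and 3025 in N2. The lowest mutant hour was thus far above the highest N2 hour. The difference was 4.17 ± 0.19 (SE), a fold of 18.1, with an adjusted p of 2.62e-05. miR-39-3p, at a similar level, had 50382, 45959, 45925 and 34056 in the mutant, against 2887, 2072, 1841 and 3226 in N2. Its difference was 4.15 ± 0.21 (SE; adjusted p = 3.24e-05).

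miR-38-3p gave the largest difference of all arms, 4.26 ± 0.29 (SE; adjusted p = 0.000121), a fold of 19.1, from a lower level. It had 11857, 9728, 11389 and 6374 normalised counts in the mutant, against 539.7, 456, 333 and 716 in N2. miR-37-3p had 37547, 42707, 35432 and 27641 in the mutant, against 2563, 1969, 1604 and 3013 in N2, a difference of 3.99 ± 0.22. In these arms the mutant was at its lowest at matched hour 21, when N2 was at its highest of the 4 hours.

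miR-36-3p differed by 3.74 ± 0.25 (SE; adjusted p = 0.000121), with mutant values of 20566.5 to 32425 against N2 values of 1488 to 2967. miR-40-3p was the least abundant of these 6 in the mutant, with 5477, 5890, 5931 and 4664 normalised counts against 539.7, 411, 386 and 522 in N2. Its difference, 3.55 ± 0.16 (adjusted p = 2.62e-05), was the smallest of the 6. The 6 arms thus spanned differences of 3.55 to 4.26, in steps not much wider than their standard errors.

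The remaining pair of the family gave smaller fitted differences in limma. miR-42-3p had 910, 808, 901 and 901 normalised counts in the mutant, against 146, 108, 161 and 253 in N2, a difference of 2.40 ± 0.18 (SE; adjusted p = 0.000181) and a fold of 5.30. miR-41-3p was rare, with 70.8, 20.2, 56.4 and 14.6 in the mutant, against 2.92, 0, 2.02 and 3.57 in N2. Its N2 values lie at about the worth of 3 counts, so its fitted difference of 2.08 ± 0.31 (adjusted p = 0.00712) is given without a fold. limma was fitted to values with a pseudocount, which shrinks differences of rare arms. For miR-41-3p edgeR's quasi-likelihood test gave 4.24 and the DESeq2 Wald test 4.38. Both lay within the ranges of miR-35-3p to miR-40-3p, 3.71 to 4.43 and 3.80 to 4.51. miR-42-3p stayed lower, at 2.60 and 2.69. With so few N2 reads the rank of miR-41-3p in the family is not settled.

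**Figure D2:**
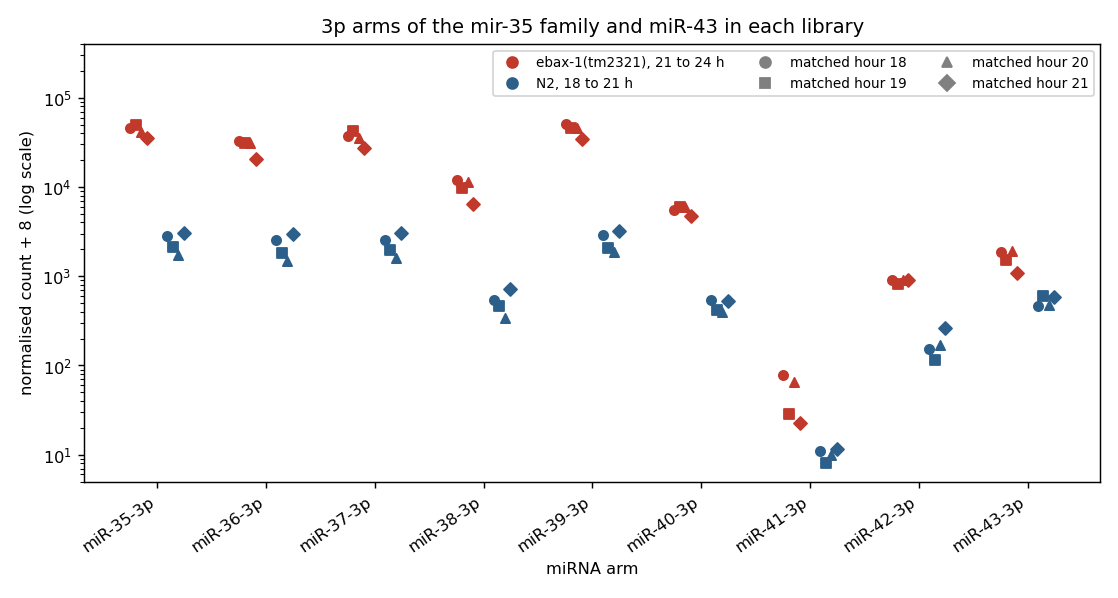
Normalised counts plus 8, on a log axis, of 9 arms (miR-35-3p to miR-43-3p) in each library, with 4 mutant values left of 4 N2 values and 1 symbol per matched hour. For every arm the lowest mutant value lies above the highest N2 value, as in miR-35-3p, where 35450.1 stands against 3025.

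The 5p arms cut from the same hairpins did not pass the test. Over the 6 hairpins miR-35 to miR-40 they differed by -0.35 to 0.60. miR-35-5p averaged 30.8 ± 10.5 normalised counts in the mutant and 30.6 ± 23.5 in N2 (SD, n = 4 hours), a difference of 0.14 ± 0.18 (SE). miR-37-5p came nearest to a call, at 125 in the mutant and 87.8 in N2 (adjusted p = 0.0828). miR-41-5p, the more abundant arm of its hairpin, averaged 207 in the mutant and 215 in N2, and miR-42-5p 682 in the mutant and 901 in N2. By the abundance rule these last 5p arms count as guides and their 3p arms as passengers, so 6 of the 8 family guides and 2 of the 8 family passengers were called higher, beside 3.39% of all arms. In miR-41 and miR-42, and in miR-43, the study took the 3p arm as the guide, and by that choice the 2 passengers called are guides. The median of the guides was 3.87 and that of the passengers 0.13, beside -0.12 over all arms.

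miR-43-3p, cut from the hairpin next to mir-42 on chromosome II (11889910 to 11890007), was also higher. It had 1851, 1503, 1918 and 1084 normalised counts in the mutant, against 462, 596, 471 and 575 in N2, a difference of 1.56 ± 0.21 (adjusted p = 0.00512). The other arm, miR-43-5p, averaged 536 in the mutant and 685 in N2 and was not called. miR-44-3p and miR-45-3p, from genes within 10 kb, differed by 0.28 ± 0.15 and 0.29 ± 0.15 and were not called. Their counts kept 1 ratio over all libraries, as arms that share reads would, and count as 1 measurement. In this cluster miR-42-3p and miR-43-3p were thus called, and their 5p arms and the mir-44 neighbours were not.

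4 called higher arms lay outside these clusters. miR-4807 had 129, 127, 125 and 136 normalised counts in the mutant, against 49.7, 45.8, 42.4 and 36.6 in N2, the difference being 1.42 ± 0.12 (SE; adjusted p = 0.000471). The spread within each strain was small beside the gap. Its gene, on chromosome X from 1872466 to 1872526, overlaps the noncoding RNA gene Y59E1B.1, and of the tested arms with genes within 10 kb, none other was called.

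miR-253-3p had 4777, 5283, 3285 and 5099 normalised counts in the mutant, against 1623, 1606, 1846 and 1995 in N2, a difference of 1.36 ± 0.17 (adjusted p = 0.00326). It lies in an intron of F44E7.5 on the same strand, on chromosome V from 5780510 to 5780616. miR-34-5p, a member of a conserved family linked to stress responses, had 43116, 48116, 36098 and 48106.5 in the mutant, against 21807, 22559, 26370 and 24571.5 in N2, a difference of 0.87 ± 0.14 (adjusted p = 0.00898). This was the most abundant of the called higher arms in N2, though its fold was the smallest at 1.83. At matched hour 20 both arms differed least, by 0.83 and 0.45.

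miR-246-3p had 366, 417, 351 and 333 normalised counts in the mutant, against 167, 212, 182 and 175 in N2, a difference of 0.97 ± 0.11 (adjusted p = 0.00244). Its 4 hourly differences, 1.10, 0.95, 0.92 and 0.90, were close to each other. Its gene lies between annotated protein-coding genes on chromosome IV, from 10940134 to 10940230.

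Among the 12 lower arms, the passenger of miR-795, a let-7 relative, differed most. miR-795-3p had 297, 329.5, 259 and 406 normalised counts in the mutant, against 959, 612, 780 and 704 in N2, a difference of -1.22 ± 0.18 (SE; adjusted p = 0.00771). Its guide miR-795-5p had 14501, 13955, 12077 and 13208 in the mutant, against 22907, 26649, 23105 and 20349.6 in N2, a difference of -0.79 ± 0.12 (adjusted p = 0.00779). It was the most abundant of the lower arms. Both arms of this hairpin were thus lower in 4 of 4 hours.

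Of the 7 let-7 family guides, 1 was called (miR-795-5p), and 6 lay below 0, as did 147 of all 225 guides. The median was -0.57. Under TMM factors it was -0.42 and under DESeq2 size factors -0.34, and neither scaling called a member. The minor relatives miR-793 (-0.74 ± 0.15, adjusted p = 0.0186) and miR-794-5p (-0.60 ± 0.16, adjusted p = 0.0471) missed the threshold. By the N2 rule the family guides include miR-241-3p (-0.26). The study took miR-241-5p (-0.51), and neither arm was called.

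miR-785-3p had 331, 328, 225 and 376 normalised counts in the mutant, against 793, 499, 736 and 778 in N2, a difference of -1.14 ± 0.18 (adjusted p = 0.00898). miR-799 had 68.8, 42.5, 54.2 and 40.4 in the mutant, against 125, 136, 86.9 and 101 in N2, a difference of -1.02 ± 0.17. Both genes lie on chromosome X. miR-359, a neighbour of mir-785, averaged 49.1 in the mutant and 66.8 in N2 and was not called (adjusted p = 0.0916).

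miR-1020-3p, a mirtron released from an intron of T16G12.1 by splicing in place of Drosha, had 236, 175, 270.03 and 167 normalised counts in the mutant, against 471, 441, 415 and 412 in N2. The difference was -1.04 ± 0.15 (adjusted p = 0.00712). It was the one called arm among the 4 mirtron guides. All 4 lay below 0, miR-1018 at -0.01, as did 147 of all 225 guides. miR-1828, in an intron of pash-1, the gene of the Drosha partner that recognises hairpins, was low in both strains, with 15.5, 15.2, 13.3 and 12.9 in the mutant, against 36.5, 29.1, 42.4 and 29.5 in N2. miR-1829c-5p, in an intron of piki-1, ranged from 1295 to 1721 in the mutant and from 2343 to 3191 in N2.

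lsy-6-3p, the miRNA that sets left-right asymmetry of a pair of taste neurons, had 142, 102, 131 and 104 normalised counts in the mutant, against 211, 189, 205 and 190.4 in N2. The difference was -0.71 ± 0.12 (adjusted p = 0.00898). Its passenger lsy-6-5p had no read in the 4 mutant libraries and 2.68 to 6.57 in N2, near the limit of detection. The other neuronal guides, miR-124-3p and miR-791-5p, were not called. miR-789-5p averaged 310.4 ± 34.4 in the mutant and 537 ± 91.7 in N2 (SD, n = 4 hours). The annotation has 2 genes of this name, mir-789-1 and mir-789-2, both on chromosome IV. miR-789-2-5p, an arm with counts of its own, had 254, 516, 404 and 479.9 in the mutant, against 334, 600.1, 729 and 414 in N2, and was not called (adjusted p = 0.308).

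3 further lower arms were passengers. miR-788-5p had 774, 890.5, 911 and 774 normalised counts in the mutant, against 1600.05, 1657, 1286 and 1875 in N2, a difference of -0.92 ± 0.15 (adjusted p = 0.00898). miR-71-3p had 3538, 4171, 3490.5 and 2890.0 in the mutant, against 6886, 6111, 5692 and 4784 in N2, a difference of -0.73 ± 0.12 (adjusted p = 0.00898). miR-51-3p averaged 177 in the mutant and 298 in N2, while its guide miR-51-5p differed by -0.04 ± 0.11. In miR-71 and miR-51 the passenger was thus called lower where the guide was not. For miR-51 the guide to passenger ratio, tested with limma below, was not called (0.68 ± 0.22, adjusted p = 0.0372). miR-51-3p was called in 6 of 20 alternatives, the fewest among the lower arms.

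**Figure D3:**
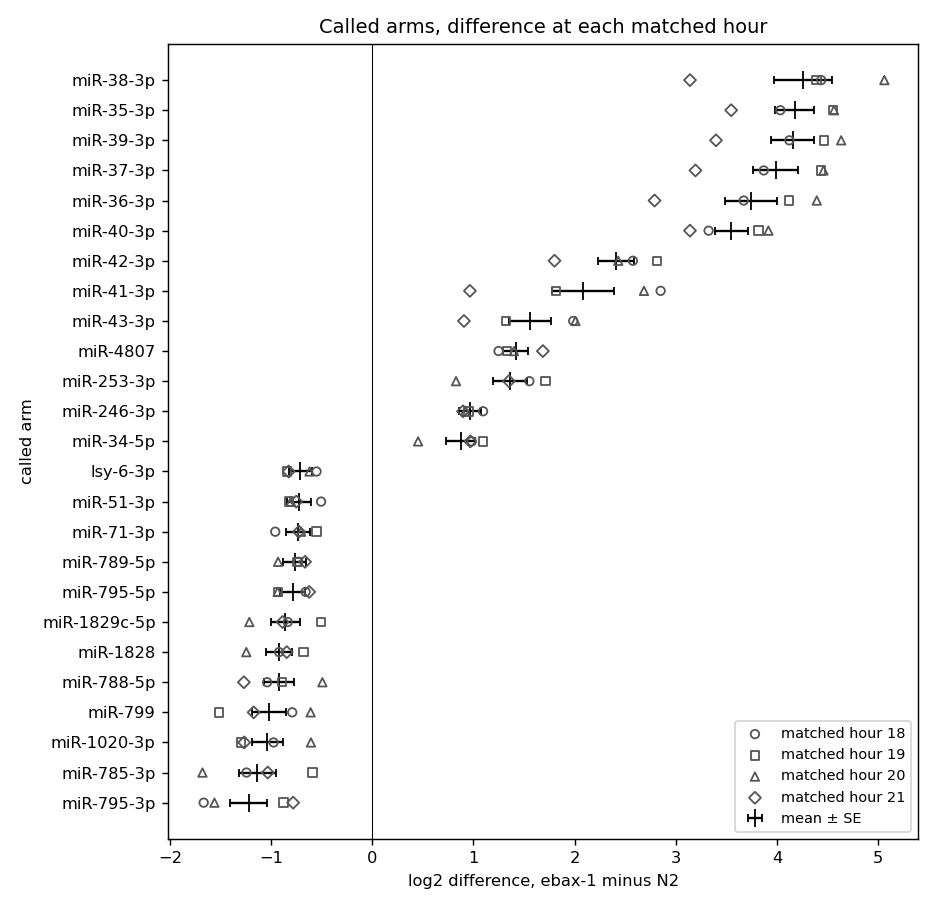
The 25 called arms in order of their early strain difference (log2, ebax-1 minus N2). Open symbols are the 4 matched hours and bars the fitted mean ± SE. No symbol crosses 0. For the 6 largest, matched hour 21 gave the smallest difference, 3.14 in miR-38-3p.

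Beside the mir-35 family, the study tied 4 miRNAs to EBAX-1. It did so for mir-71 and mir-235 on samples that include these libraries, so that this choice is not independent of them, and for mir-247 and mir-788 on other samples of later development. Over the early hours none of their 4 guides by the N2 rule was called, and 2 of their 4 passengers, miR-71-3p and miR-788-5p, were called lower, beside 3.13% of all arms. The study took the 5p arm as the guide of miR-788, and by that choice 1 of the 4 guides was called. miR-235-3p, the worm relative of miR-92 that keeps progenitor cells quiescent in starved L1 larvae, had 219463, 240712, 219616 and 160615 normalised counts in the mutant, against 123949, 172382, 91334 and 36312 in N2. It was higher at each hour, but its lowest mutant value lay below its highest N2 value. The difference of 1.18 ± 0.26 (SE; adjusted p = 0.0276) passed 0.05 and not 0.01.

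miR-71-5p, which extends lifespan and survival of arrested larvae, had 437415, 493481, 412402 and 513832 in the mutant, against 249254, 358871, 460776 and 340689 in N2. It was higher at 3 of 4 hours and lower at matched hour 20, and the difference of 0.43 ± 0.17 was not called (adjusted p = 0.15). miR-247-3p differed by 0.00 ± 0.20, with 2 hours up and 2 down, and miR-788-3p by -0.63 ± 0.20 (adjusted p = 0.0828), lower in 4 of 4 hours.

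Few arms of other families were called, where 6.53% of all arms were. In lists this short a count of 0 is no result about a family. The abundant families mir-58 and mir-44 had 0 called arms, with guide medians of -0.10 and 0.24. The mir-51 family guides had a median of -0.10 and 0 of 6 called, and the mir-2 family guides -0.18 and 0 of 4. The same held for the guides of the mir-72, mir-63/64, mir-46, mir-75 and mir-238 families and the late-rising miR-357, miR-358 and miR-359, where 0 were called and medians ran from -0.31 to -0.01. The mir-2 count takes miR-43-5p by the N2 rule, while miR-43-3p, the study's guide, was called higher. In the lin-4 family, which times early larval fates, miR-237-5p differed by 0.57 ± 0.14 (adjusted p = 0.0353), with 161885 to 217450 normalised counts in the mutant against 112464 to 141757 in N2. miR-230-3p lies outside these lists and was chosen after its values were seen. It had 18580, 19223, 16827 and 17742 in the mutant, against 5887, 11411, 12306 and 11780 in N2, and missed the threshold (0.86 ± 0.21, adjusted p = 0.037).

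Of the arms known from 1 tissue, lsy-6-3p was the one guide called. miR-60-3p of the intestine had 977, 796, 971 and 705 normalised counts in the mutant, against 1593, 1389, 1297 and 1894 in N2, without overlap (-0.83 ± 0.18, adjusted p = 0.0232). miR-1-3p of muscle differed by -0.33 ± 0.14 and miR-228-5p of glia by 0.06. The part of tissue makeup in the differences above was not tested.

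The second comparison asked whether differences of the early hours were particular to them. Differences at matched hours 18 to 21 were set against those at hours 22 to 28 in 1 limma fit of 22 libraries. No arm of 406 was called (0%), while 28 had an unadjusted p under 0.05 (6.9%). All 25 arms called early had a later mean of the same sign, smaller in size for 15 of them. Other tools did call arms: 3 with edgeR's quasi-likelihood test (miR-36-3p, miR-38-3p and miR-39-3p), and with the DESeq2 Wald test also miR-37-3p and miR-246-3p, 5 in all. Each of these had a larger difference early.

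miR-39-3p came nearest in limma. Its hourly differences were 4.12, 4.47, 4.63 and 3.40 in the early window and 2.59 to 3.24 later, 1.29 ± 0.22 (SE) more early than late, with an adjusted p of 0.0375. With TMM factors or DESeq2 size factors this arm was called (adjusted p = 0.00711 and 0.00889), and without matched hour 21 miR-36-3p, miR-38-3p and miR-39-3p were. For miR-36-3p the early excess was 1.37 ± 0.27 (adjusted p = 0.0624) and for miR-38-3p 1.31 ± 0.30 (adjusted p = 0.0845). In N2, miR-39-3p stood at 1841 to 3226 normalised counts early and at 2742 to 5930.2 later, while in the mutant it stood at 34056 to 50382 early and at 18722 to 39210 later. N2 thus ran lower and the mutant higher in the early window, with overlapping ranges, and these differences within a strain were not tested.

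miR-246-3p, at 0.97 early, averaged 0.04 later. It had 275 normalised counts in the mutant and 139 in N2 at matched hour 22, and 4876 in the mutant and 5293 in N2 at matched hour 28. Its early excess was 0.93 ± 0.25 (adjusted p = 0.124), short of a call. miR-235-3p ran the other way, with 0.83, 0.48, 1.27 and 2.15 in the early hours and a peak of 3.38 at matched hour 22, where the mutant had 188605 and N2 18141. Its early minus later difference was -0.68 ± 0.45 (adjusted p = 0.893). miR-71-5p differed by 0.80 on average later against 0.43 early (adjusted p = 0.893).

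**Figure D4:**
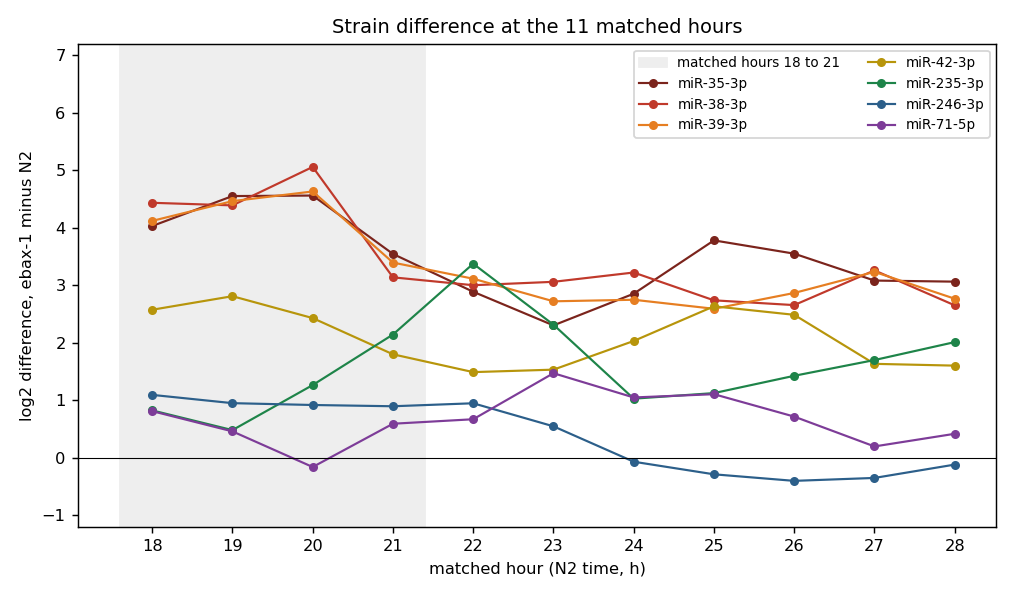
Strain difference (log2, ebax-1 minus N2) at the 11 matched hours for 7 arms, with the early hours shaded. miR-39-3p peaks at 4.63 at hour 20, miR-235-3p at 3.38 at hour 22, and miR-246-3p lies between 0.90 and 1.10 in the shaded hours and at or below 0 from hour 24.

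Within the early window, no arm of 383 had a called slope of the strain difference (0%), and 15 had an unadjusted p under 0.05 (3.92%). edgeR also called 0. This fit leaves 2 residual degrees of freedom. For miR-235-3p the slope was 0.47 ± 0.16 per hour (SE; adjusted p = 0.991). Its N2 level was 36312 at matched hour 21 and 172382 at hour 19, a wider range than in the mutant, which had 160615 to 240712. For miR-35-3p the slope was -0.14 ± 0.17 per hour.

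The third comparison used the fact that both arms of a hairpin come from 1 precursor, so that their ratio does not depend on the library total, apart from the pseudocount. The log2 ratio of guide to passenger was compared in 93 hairpins, those in which each arm had a mean of 10 normalised counts or more. 12 were called (12.9%), with 9 higher in ebax-1 and 3 lower. The median change over all 93 was 0.07. limma moves the variance of each hairpin toward a value shared by all, and the standard errors lay between 0.22 and 0.29 throughout. The p-values of this comparison thus rest largely on that shared variance and not on the scatter of 1 hairpin.

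In 5 hairpins of the mir-35 cluster the guide gained on its passenger by 3.39 to 4.39. miR-39 guide reads outnumbered passenger reads 392.1 to 1 in the mutant and 18.8 to 1 in N2, a change of 4.39 ± 0.24 (SE, log2; adjusted p = 6.67e-14). For miR-35 the ratio was 1125 in the mutant and 68.6 in N2, a change of 4.04 ± 0.23. With a lag of 0 h the calls of miR-37, miR-39 and miR-40 were lost. miR-38 was not tested because miR-38-5p averaged only 2.44 in the mutant and 1.48 in N2. Ratios include the pseudocount of 8, which holds them down where the passenger is rare.

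3 hairpins went the other way, and in each the 3p arm is the passenger by the N2 rule. For miR-42 the ratio of 5p to 3p was 0.68 in the mutant and 4.21 in N2, a change of -2.62 ± 0.26 (adjusted p = 4.41e-09). For miR-43 it was 0.32 in the mutant and 1.03 in N2, a change of -1.70 ± 0.24. For miR-41 the change was -2.05 ± 0.27, with miR-41-3p at 0 to 3.57 normalised counts in N2, so that this ratio rests on few reads. On average over these hours the mutant thus held more of the 3p than of the 5p arm of both miR-42 and miR-43. At matched hour 21 it held more of the 5p arm of miR-42, 1296 against 901 normalised counts. In all 8 of these hairpins it was the 3p arm that gained on the 5p arm. The miR-43 ratio was called in 12 of 16 alternatives and the miR-41 ratio in 11 of 15. Both were lost at lags of 0, 1 and 4 h and with no hour term. The miR-42 ratio, called in 14 of 16, was lost at a lag of 0 h and with no hour term.

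4 hairpins outside these clusters were called, each with a higher guide to passenger ratio, by the N2 rule, in 4 of 4 hours. miR-253 changed by 1.81 ± 0.24 (adjusted p = 9.39e-07), with a ratio of 213 in the mutant and 60.8 in N2. Its passenger miR-253-5p had few reads, 7.73 to 18.4 normalised counts in the mutant against 16.1 to 26.3 in N2. The miR-253 ratio was called in 14 of 15 alternatives and lost at a lag of 4 h. A minimum mean of 50 left it untested. miR-230 changed by 1.17 ± 0.26 (adjusted p = 0.00122). The study took the 5p arm as the guide of miR-230, and by that choice its guide to passenger ratio was lower in the mutant. miR-71 changed by 1.16 ± 0.24 (adjusted p = 0.000555), with ratios of 132 in the mutant and 59.1 in N2. Of its arms the passenger alone was called, lower by 0.73. miR-235 changed by 1.03 ± 0.24 (adjusted p = 0.00189), where miR-235-5p had 6.01 to 21.3 normalised counts in the mutant against 2.68 to 25.6 in N2, so that this ratio rests on few reads. It was called in 7 of 14 alternatives and lost at every other lag, where it ran from 0.037 with no lag to 1.01 with a lag of 4 h, with a pseudocount of 1, with no hour term and without matched hour 21. The miR-230 ratio was called in 9 of 16 alternatives. It was lost at lags of 0 and 4 h, with a pseudocount of 1, with no hour term and without matched hour 18 or 20. A minimum mean of 50 lost it too. The miR-71 ratio was called in 11 of 16 alternatives. It was lost at lags of 0, 1 and 2 h, with no hour term and without matched hour 18. miR-788, with both arms lower, changed by 0.29 ± 0.26 and was not called. With a minimum mean of 50 for both arms 6 hairpins were called, and with no term for matched hour 6.

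**Figure D5:**
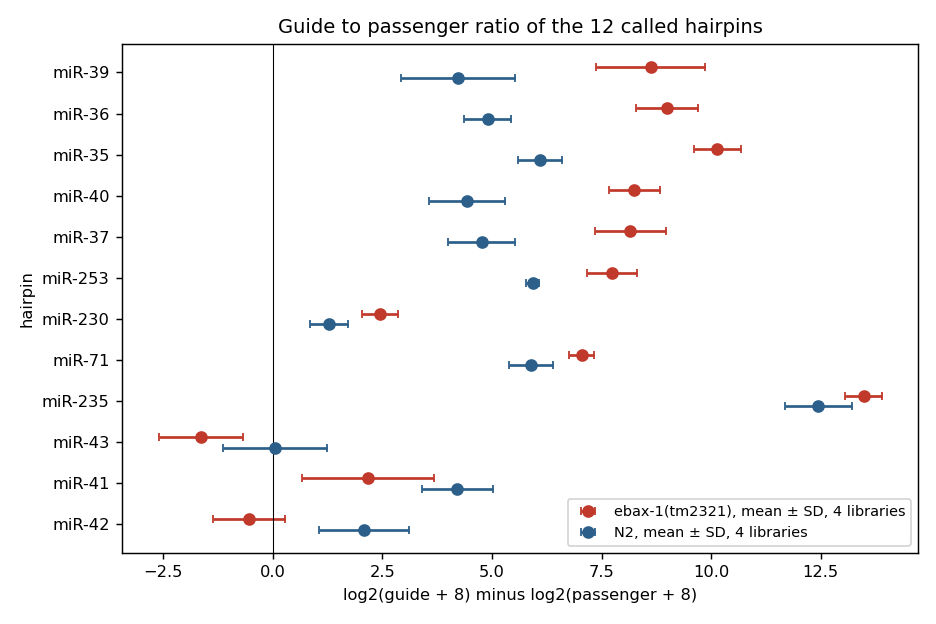
Guide to passenger ratio (log2, pseudocount of 8 on each arm) of the 12 called hairpins, mutant above N2, as mean ± SD of 4 libraries. The 5 mir-35 cluster hairpins at the top lie 3.39 to 4.39 apart between the strains, and miR-43, miR-41 and miR-42 at the bottom have the mutant to the left of N2.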

How the data were processed

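Small RNA reads of whole larvae were used as deposited. According to the study's methods, the authors trimmed adapters, aligned reads to ce10 with Bowtie through QuasR, and counted same-strand reads starting within 3 bp of the 5′ end of a miRBase arm. Tool versions: not given in the sources used here. The deposited count table holds whole counts for 437 arms. The deposited log2 table holds log2 values that the authors made by dividing counts by the library total, multiplying by the mean total and adding 8, which recomputation matched within 0.0005. Each arm is thus a share, so a rise of abundant arms lowers the rest, and the pseudocount shrinks differences of rare arms.

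limma 3.58.1 in R 4.3.3 was fitted to the log2 values with matched hour as a factor and strain (3 residual degrees of freedom), on the 383 arms with a read. Moderation across arms added 3.88 prior degrees of freedom to this fit. The early minus later fit (22 libraries, 406 arms) and the slope fit used the same terms. The guide was the arm with the higher mean in the 14 N2 libraries. An exact sign-flip test of 4 pairs cannot go below 0.125 (two-sided), so that test was not used. The smaller p-values given for single arms rest on the assumptions of the models and, in limma, on moderation across arms. Alternatives were TMM factors, DESeq2 1.42.0 size factors, pseudocounts of 1 and 32, a minimum mean of 10, a threshold of 0.05, lags of 0, 1, 2 and 4 h, moderation with trend, no or a linear hour term, a spline over 22 libraries, edgeR 4.0.16 and DESeq2 tests, later hours without the mutant libraries of 28, 29 and 31 h, and each matched hour left out. Functions were tested on simulated data.

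Named were the 10 largest called differences each way (mean of at least 50 in 1 strain, 1 sign in 4 hours), members of the miRNA lists, the 5 largest called ratio changes each way, and called arms of the other fits. The remaining called arms were added after their values were seen. Members and lists were chosen with earlier results of these data known. Places of genes come from the WBcel235 annotation, in which 371 of the 383 arms had a gene of their name, and were not converted to ce10.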

Additional observations from a re-analysis of the deposited data

Results flagged for a closer look

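In 66 groups of 4 libraries (30 named arms and 3 library measures in each strain), 3 held a value apart from the other 3. This was judged by its gap to the nearest as a share of the range. Arms were judged on the log2 scale and library measures without a log. Chance flags about 1 in 20 groups, so 3 is no more than chance gives. miR-36-3p in the mutant had 20566.5 normalised counts at 24 h, against 31187 to 32425 in the other mutant libraries. miR-42-3p in the mutant had 807.58 normalised counts at 22 h, against 900.7 to 910.2 in the others. miR-785-3p in N2 had 499.207 normalised counts at 19 h, against 736 to 793 in the others. Without matched hour 21, which holds the mutant library of 24 h, the early difference of miR-36-3p stayed called. The 4 libraries of a group are 4 hours of 1 time course, so a value apart may be an hour and not a fault, which was not tested.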

How the results depend on the processing

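The count of arms called in the early comparison was 25. It was 11 with TMM factors, 13 with DESeq2 size factors, 9 with a pseudocount of 1, 54 at a threshold of 0.05, 13 and 16 with lags of 0 and 1 h, and 52 with the spline model. With 1 matched hour left out it ran from 8 (without hour 18) to 36 (without hour 19). The early minus later count was 0. It was 1 with TMM factors, 1 with DESeq2 size factors, 1 at a threshold of 0.05, 3 with a lag of 2 h, 3 with edgeR and 5 with the DESeq2 Wald test, and ran from 0 to 3 with 1 matched hour left out. The count of called slopes was 0 and ran from 0 to 3 with 1 matched hour left out. The count of called ratios was 12. It was 3 and 7 with lags of 0 and 4 h, 6 with a minimum mean of 50 and 6 with no hour term, and ran from 9 to 12 with 1 matched hour left out.

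Signs turned for a few results, none of them past the threshold in its own comparison. With lags of 0, 1 and 2 h let-7-5p differed by -1.40, -1.19 and -0.88, and miR-247-3p by -0.62, -0.36 and -0.0060. miR-237-3p differed by -0.17 and -0.021 with lags of 1 and 2 h, miR-788-3p by 0.14 with no lag, and miR-786-3p by 0.040 with a lag of 4 h. miR-247-3p differed by -0.0040 in the spline model and by -0.18 to 0.15 with 1 matched hour left out. Without the mutant libraries of 28, 29 and 31 h and their N2 partners the early minus later difference of miR-41-3p was -0.24. With 1 matched hour left out the slope ran from -0.49 to 0.067 per hour for miR-71-5p and from -0.50 to 0.27 for miR-35-3p. The cause was not tested. No paired analysis beyond the matched hour was possible because the labels give no replicate numbers that the strains share. Depth limits arms near 3 counts, such as miR-41-3p in N2, and 3 residual degrees of freedom limit what can be called.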
